A study of Homo sapiens with 20 samples.

Results

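H1 cells in which FOXO4 was knocked down by a short hairpin RNA (shRNA), taken after 7 days of differentiation towards surface epithelium (SE), were set against undifferentiated H1 cells to ask which genes stood at the stem cell level and which did not. H1 is a widely used human embryonic stem cell (hESC) line. The comparison used 4 of the 20 RNA-seq libraries of the study, 2 of the FOXO4 knockdown at day 7 and 2 of hESC, which were deposited in 2 separate tables and were brought to 1 scale. The hESC were wild type (WT), received no treatment and carried no hairpin. The knockdown cells had the genotype FOXO4 knockdown and went through SE differentiation up to the maturation stage at day 7. Values of 4 further groups of 2 libraries stand beside them: control cells that received a scramble shRNA, at day 7 of the same differentiation; WT cells at day 3, the initiation stage; FOXO4 knockdown cells at day 3; and SP6 knockdown cells at day 7. The agents that drive the differentiation and the sequence of the hairpin are not given in the labels. Day, hairpin, differentiation and deposited table all differ between the knockdown and the hESC libraries and cannot be told apart. The labels do not say that replicates were separate cultures, so p-values measure only the spread between these samples.

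FOXO4 is a forkhead transcription factor that is held out of the nucleus by insulin signaling and acts on genes of stress resistance, growth arrest and metabolism. SP6 is a zinc finger transcription factor of ectodermal organs such as teeth and skin. Human embryonic stem cells are kept undifferentiated by POU5F1, SOX2 and NANOG, together with FGF and NODAL signals. Surface ectoderm, the precursor of the epidermis, forms under BMP signals and is marked by TFAP2A, GATA3, keratins 8 and 18 and, later, TP63.

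Levels are the authors' normalized read counts. Those of the 4 compared libraries were divided by factors of 0.994 to 1.011 to bring the 2 tables to 1 scale. Levels of the further groups were divided by factors of 0.952 to 1.142 to reach the same scale. Tests against the scramble libraries used the values as deposited, and those against the SP6 knockdown a separate rescaling. Their log2 differences can therefore depart slightly from the levels printed here. The 4 libraries held from 14937104 to 18321973 recovered reads. Differences are on the log2(level + 1) scale, knockdown at day 7 minus hESC, with the standard error (SE of the difference, given after ±) of limma, a linear model fitted across all genes. A gene was called higher or lower at a Benjamini-Hochberg adjusted p under 0.05. A gene that was also at least 2-fold away (a log2 difference of 1 or more in size) counts as away from the stem cell level. A gene counts as at the stem cell level where the 95% interval of its difference lay wholly between -1 and 1, which still lets a called difference of less than 2-fold through. The mean of the 4 libraries had to reach 10, and 16454 genes passed. Each value given in pairs is replicate 1 and replicate 2.

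The hairpin's target was low. FOXO4 stood at 412 and 380 in hESC and at 35.1 and 35.2 in the knockdown at day 7, which is 8.87% of hESC. Its log2 difference was -3.46 ± 0.16 (limma, adjusted p = 1.9e-12). The scramble libraries of day 7 held 1253 and 1044, so FOXO4 was lower in the knockdown than in either reference. Of the other FOXO genes, FOXO1 fell from 1537 and 1684 to 707 and 732, a log2 difference of -1.16 ± 0.07. FOXO3 was at the stem cell level with 872 and 858 in hESC against 712 and 828. FOXO6 stood at 97 and 113 in hESC and 186 and 184 in the knockdown, and its difference of 0.81 ± 0.16 put it in neither class. SP6 went the other way: it rose from 93.1 and 81.6 to 514 and 452, which is 553% of hESC, while the scramble libraries held 5435 and 5038. In these bulk samples, fewer cells of a type and less RNA per cell cannot be told apart.

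Most genes of the knockdown cells were near the stem cell level, and a smaller set was far above it. Of 16454 genes tested, 10123 (61.5%) were at the stem cell level. A further 2007 (12.2%) were at least 2-fold higher and 1287 (7.82%) at least 2-fold lower, while 3037 were in neither class. Without a minimum fold, 5355 genes (32.5%) were called higher and 5134 (31.2%) lower by limma. The classes and the calls overlap, since 5730 genes at the stem cell level had an adjusted p under 0.05. The far tail was uneven, with 674 called genes at least 4-fold higher and 209 at least 4-fold lower. Scaling by total reads moved the median log2 difference of all genes from -0.0027 to -0.246, and 3695 genes were then called higher and 7407 lower, so the split between higher and lower depends on the scaling.

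A gene that is silent in hESC passes the filter only if it is high in the knockdown, and then it has to differ. For this reason lists of genes are also counted over the 15364 genes whose mean reached 10 in hESC and in the knockdown alike. Of these, 1517 (9.87%) were at least 2-fold higher, 1038 (6.76%) at least 2-fold lower and 10123 (65.9%) at the stem cell level. By the adjusted p alone, 31.7% of them were higher and 31.8% lower. The shares of each list are read against these values.

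**Figure D1:**
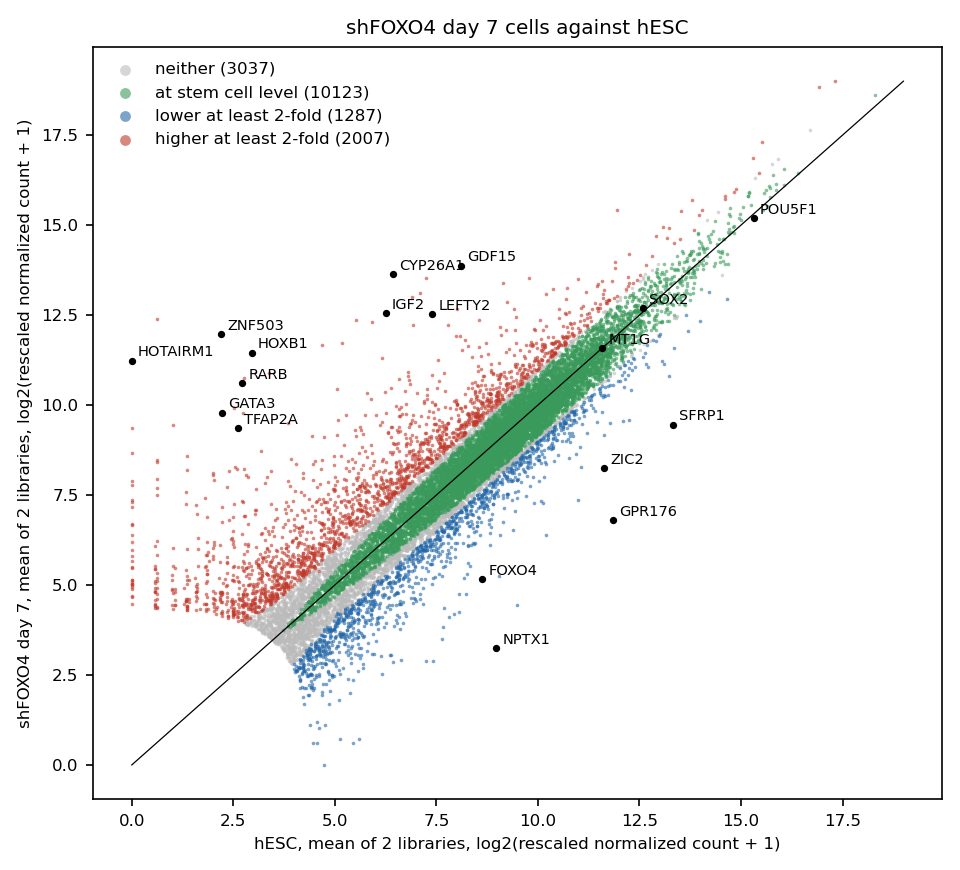
Mean level in hESC (horizontal axis) against mean level in the FOXO4 knockdown at day 7 (vertical axis), both as log2(level + 1) over 2 libraries, 1 point per tested gene, coloured by class. POU5F1, SOX2 and MT1G lie on the diagonal, ZNF503, GATA3 and RARB far above it and ZIC2, SFRP1 and FOXO4 far below it.

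Core pluripotency genes stayed near the stem cell level. Of the 15 in the list, which all passed the filter, 13 were at the stem cell level, 2 were at least 2-fold higher and 0 were at least 2-fold lower. Their median log2 difference was 0.11, beside -0.0027 for all genes. At any fold, 7 of the 15 were called higher and 6 lower, beside 31.7% and 31.8% of all genes at 10 or more in both groups. Most of them thus differed from hESC by less than 2-fold. POU5F1, the homeobox factor at the centre of the network, stood at 40780 and 40382 in hESC and at 38619 and 36792 in the knockdown, 92.9% of hESC, while the scramble libraries held 5496 and 3632. SOX2, its partner factor, stood at 6400 and 5937 in hESC, 6718 and 6588 in the knockdown and 190 and 90 in the scramble libraries. The knockdown libraries thus lay beside hESC for both genes and did not overlap the scramble libraries. The interval of SOX2 lay within the 2-fold bounds, and its difference of 0.11 ± 0.05 was not called (limma, adjusted p = 0.064).

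NANOG, the third of these factors, rose within the bounds. It stood at 1707 and 1807 in hESC and at 2969 and 2918 in the knockdown, 168% of hESC, and the 95% interval of its log2 difference ran from 0.63 to 0.86. The scramble libraries held 72.5 and 25.9. DPPA4, a chromatin-bound protein of early embryonic cells, was level at 18499 and 18187 in hESC against 18200 and 17606. LIN28A, which blocks the maturation of let-7 miRNAs, rose by 0.31 ± 0.06 and L1TD1, an RNA-binding protein of stem cells, fell by 0.43 on the log2 scale. Both stayed inside the bounds. TDGF1, the co-receptor of NODAL, fell from 9100 and 9365 to 6692 and 6173, also inside them.

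UTF1 and DPPA2 were the 2 core genes above the stem cell level. UTF1, a chromatin-associated factor of pluripotent cells, stood at 182 and 116 in hESC, 11803 and 11641 in the knockdown and 129 and 43.5 in the scramble libraries. Its log2 difference from hESC was 6.32 ± 0.12 (limma, adjusted p = 5.1e-18). DPPA2, which binds chromatin together with DPPA4, rose from 370 and 338 to 1155 and 1253, a difference of 1.76 ± 0.08. The SP6 knockdown at day 7 held 1497 and 1214 for UTF1, between hESC and the FOXO4 knockdown.

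A second list of 29 pluripotency-associated genes was less uniform. Of the 28 at 10 or more in both groups, 17 (60.7%) were at the stem cell level, 7 (25%) were at least 2-fold lower and 3 (10.7%) at least 2-fold higher. USP44, a deubiquitinase of histone H2B, was kept at 3260 and 3136 against 3110 and 2899, where the scramble libraries held 68.5 and 55.9. EPCAM, a surface protein of stem cells and simple epithelia, was level at 3121 and 3011 against 3158 and 3177. The long noncoding RNA ESRG stood at 26309 and 26480 in hESC and 27522 and 29721 in the knockdown.

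Among the genes of this list that fell were factors of the anterior neural plate. ZIC2, a zinc finger factor that marks primed stem cells, fell from 3320 and 3033 to 284 and 317, 9.47% of hESC (limma, adjusted p = 3.8e-17). Its neighbour and relative ZIC5 fell from 1191 and 1143 to 81.8 and 84.8, a log2 difference of -3.79 ± 0.11. OTX2, a homeobox factor of primed stem cells and the anterior brain, fell from 299 and 301 to 36.4 and 15.5. TERF1, a protein of telomere ends, fell to 18.6% of hESC, from 9664 and 9652 to 1912 and 1675. SFRP2, a secreted WNT inhibitor, fell from 7660 and 7795 to 3480 and 3519.

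Several genes linked to naive pluripotency were higher. In 7 genes of this list at 10 or more in both groups, 4 were at least 2-fold higher, 2 were at the stem cell level and 0 were lower. NLRP7, a gene of oocytes and early embryos, rose from 107 and 135 to 5045 and 4487, with a log2 difference of 5.30 ± 0.10. KLF4 rose from 58.2 and 58.7 to 475 and 480, and KLF5 from 107 and 121 to 677 and 735. Both are zinc finger factors that also act in epithelia, and the scramble libraries held 488 and 426 for KLF4. TFCP2L1 was at the stem cell level, at 305 and 267 against 284 and 292.

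MT1G, MT1H, MT1E, MT1F and MT2A, metallothioneins that bind zinc and copper, were at the stem cell level in day 7 knockdown cells, while MT1X fell, and scramble cells had little of any of them. These genes are switched on by the zinc-sensing factor MTF1 at short metal response elements in their promoters. The promoters of 3 of them are shown, MT1H and MT2A, which were at the stem cell level, and MT1X, which fell. All 3 carry matches to these elements close to the start. Promoters of MT1G, MT1E and MT1F were not among the sequences searched. The sequences are from RefSeq on GRCh38.p14, plus strand, 5′ to 3′, and end just before the transcription start. Capitals mark each match to TGCNCNC, the core of the element, on either strand, and no matches overlap.
MT1H, chr16:56669664-56669813: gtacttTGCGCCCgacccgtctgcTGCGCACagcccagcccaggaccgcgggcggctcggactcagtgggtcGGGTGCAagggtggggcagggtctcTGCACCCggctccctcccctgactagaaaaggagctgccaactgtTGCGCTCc
MT2A, chr16:56608434-56608583: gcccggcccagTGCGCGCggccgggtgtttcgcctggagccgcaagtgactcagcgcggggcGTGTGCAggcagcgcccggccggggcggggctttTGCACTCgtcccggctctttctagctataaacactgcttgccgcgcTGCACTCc
MT1X, chr16:56682320-56682469: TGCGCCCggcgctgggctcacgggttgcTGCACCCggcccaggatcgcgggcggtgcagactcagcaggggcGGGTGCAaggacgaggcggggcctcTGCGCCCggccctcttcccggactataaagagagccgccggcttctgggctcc
The stretches hold 5, 4 and 4 matches. In windows of 300 bases around the start, 4 or more matches were found in 2.94% of 35116 RefSeq promoters and at least 1 in 55.9%, so a single match is common. A match is a description of these letters and was not tested as a binding site.

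MT1G was the closest to hESC of the abundant members. It stood at 3294 and 2862 in hESC, 3159 and 2951 in the knockdown, and 2.98 and 3.1 in the scramble libraries. Its log2 difference from hESC was -0.01 ± 0.06. MT1H, of the first promoter above, stood at 1227 and 1080 in hESC, 1272 and 1334 in the knockdown and 1.99 and 0 in the scramble libraries. MT2A, of the second, stood at 1579 and 1501 against 1728 and 1914, and the scramble libraries held 37.7 and 18.6. For all 3 genes the knockdown lay far above both scramble libraries. MT1E and MT1F rose, by 0.48 ± 0.08 and 0.66 ± 0.10, and stayed inside the bounds.

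MT1X was the exception among them. With the same motif before its start, it fell from 249 and 235 in hESC to 89.6 and 128 in the knockdown, a log2 difference of -1.17 ± 0.17 (limma, adjusted p = 6e-06), while both scramble libraries were at 0. With the first knockdown library left out its difference was -0.91, which is under 2-fold. MTF1 itself was level, at 294 and 283 against 248 and 308. SLC30A1, a zinc exporter that MTF1 also switches on, fell by 0.23 on the log2 scale and was at the stem cell level, with 1905 and 1749 against 1581 and 1537. Of the 12 genes of this list at 10 or more in both groups, 8 (66.7%) were at the stem cell level, near the 65.9% of all genes, so the share at the stem cell level is no result about the list. Metallothioneins are near-identical copies, so reads may be split between them and single members are uncertain. With all 8 libraries of both tables in 1 fit, MT1E, MT1F and MT1H left the class and 5 of the list were at the stem cell level.

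At day 3 MT1G was far below hESC. It was at 0 in both WT libraries of day 3, and the FOXO4 knockdown libraries of day 3 had a mean of 94.1. The SP6 knockdown at day 7 held 4200 and 2974. Across these groups MT1G was thus high in hESC and in both knockdowns at day 7, and low at day 3 and in the day 7 scramble libraries.

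**Figure D2:**
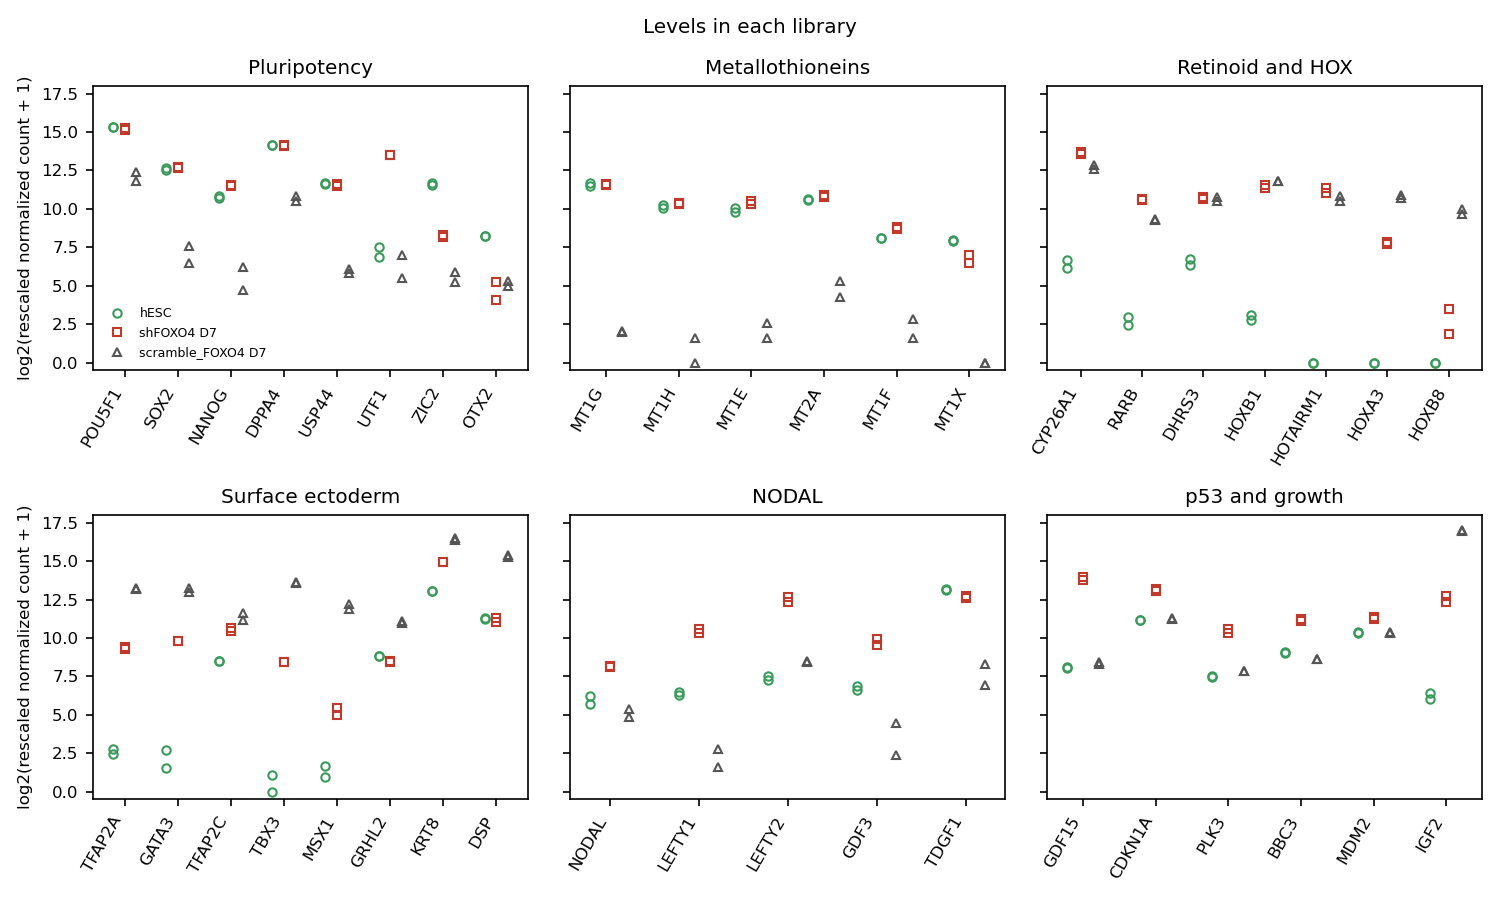
Level of single genes in each library as log2(level + 1) (vertical axes), for hESC, the FOXO4 knockdown at day 7 and the scramble libraries of day 7, with 1 point per library, in 6 panels of genes. In the metallothionein panel the knockdown points lie beside those of hESC and far above the scramble points; in the surface ectoderm panel most lie between the other 2 groups.

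NODAL signaling genes were partly above the stem cell level. NODAL is a ligand of the TGF-beta family that maintains primed pluripotency, and LEFTY1 and LEFTY2 are its secreted inhibitors and targets. NODAL rose from 52.4 and 75.1 in hESC to 274 and 286, with a log2 difference of 2.14 ± 0.18. LEFTY2 rose from 156 and 181 to 5316 and 6508, a difference of 5.12 ± 0.09 (limma, adjusted p = 1.2e-18). LEFTY1 rose from 76.6 and 87 to 1295 and 1556. The scramble libraries held 362 and 353 for LEFTY2 and 5.96 and 2.07 for LEFTY1. LEFTY1 and LEFTY2 are near-identical neighbours, so their reads may be split between them.

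Of the 16 genes of the list at 10 or more in both groups, 5 (31.2%) were at least 2-fold higher, 1 was lower and 6 (37.5%) were at the stem cell level. GDF3, a related ligand, rose from 97.9 and 115 to 985 and 736. SMAD3, which carries the signal to the nucleus, rose by 1.12 ± 0.08, whereas SMAD2 was at the stem cell level with 1286 and 1295 against 1099 and 1102. Among receptors, ACVR2B fell from 2378 and 2503 to 1091 and 1166, and ACVR1B was level at 618 and 603 against 716 and 617. FOXH1, the DNA-binding partner of the SMADs, rose by 0.62 ± 0.07 and stayed inside the bounds. SKIL, a SMAD corepressor, rose by 0.82 ± 0.07, and CER1, another secreted inhibitor, by 0.85 ± 0.32 from 24.2 and 28.3 to 35.1 and 65.2.

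Surface ectoderm regulators were clearly above the stem cell level and mostly below the scramble level. Of the 26 listed, 24 passed the filter, 10 of them only through the knockdown libraries. Of the other 14, 12 (85.7%) were at least 2-fold higher, 1 was lower and 1 was at the stem cell level. The summed level of the list was 2176 and 2177 in hESC, 10660 and 10427 in the knockdown and 85137 and 76863 in the scramble libraries.

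TFAP2A, the AP-2 factor that opens the surface ectoderm program, stood at 5.82 and 4.35 in hESC, 691 and 617 in the knockdown and 9851 and 9201 in the scramble libraries. Its log2 difference was 6.76 ± 0.23 from hESC, where it passed the filter only through the knockdown libraries, and -3.80 from the scramble libraries (limma, adjusted p = 1.2e-09 for the latter). GATA3, a zinc finger factor of surface ectoderm and trophoblast, stood at 1.94 and 5.44 in hESC, 879 and 891 in the knockdown and 9733 and 8177 in the scramble libraries. Like TFAP2A, it passed the filter only through the knockdown libraries. Both genes had 3 separate levels with no overlap between groups. TFAP2C, which hESC already had at 355 and 364, rose to 1618 and 1375, a difference of 2.05 ± 0.09.

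TBX3, a T-box factor of early epithelia, had 0 and 1.09 in hESC, 346 and 339 in the knockdown and 12920 and 12469 in the scramble libraries. Its log2 difference of 7.89 ± 0.40 rests on so few hESC reads that it depends on the count of 1 that is added and is no bound. DLX5, a homeobox factor at the border of the neural plate, was at 0 in both hESC libraries and at 149 and 164 in the knockdown, at least 102-fold higher (floor of 3 reads over the group, counting error only). MSX1, a homeobox target of BMP, reached only 42.9 and 31 where the scramble libraries held 4658 and 3761. HAND1 reached 37.7 and 50.7 where they held 10381 and 9138.

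The master gene of stratified epithelium was barely on. TP63 was at 0 in both hESC libraries, at 16.9 and 11.4 in the knockdown and at 529 and 437 in the scramble libraries; at a mean under 10 over the 4 compared libraries it was not tested, and the knockdown level was at least 9.16-fold that of hESC. GRHL2, a Grainyhead factor of epithelial junctions, was the regulator at the stem cell level, with 448 and 462 against 342 and 356, and the scramble libraries held 2230 and 2054. OVOL2, an epithelial zinc finger factor, was the regulator that was at least 2-fold lower, falling from 178 and 158 to 53.3 and 40.3. SP8, a relative of SP6, stood above both references at 829 and 822, against 143 and 132 in hESC and 21.8 and 19.7 in the scramble libraries.

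Structural genes of simple epithelium were at the stem cell level or above it. Of 30 at 10 or more in both groups, 21 (70%) were at the stem cell level and 9 (30%) were at least 2-fold higher, beside 65.9% and 9.87% of all genes. Over all 31 tested, the number at least 2-fold higher was 10, and 6 with scaling by total reads. KRT8, a keratin of simple epithelia, rose from 8660 and 8722 to 32260 and 31317, a log2 difference of 1.87 ± 0.04, and its partner KRT18 from 1083 and 1075 to 2420 and 2504. KRT7, by contrast, reached 423 and 439.5 from 134 and 106, where the scramble libraries held 20653 and 22363. DSP, which anchors keratins at desmosomes, was at the stem cell level with 2423 and 2499 against 2486 and 2121, and the scramble libraries held 39139 and 43174. CLDN4, a claudin of tight junctions, was level at 1280 and 1357 against 1338 and 1323, and CDH1, the epithelial cadherin, rose by 0.21 ± 0.05 and stayed inside the bounds.

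The keratins of stratified epithelium named here were low, and some other keratinocyte genes were not. Of the 25 keratinocyte genes found, 17 passed the filter, 2 of them only through the knockdown libraries. KRT5, a keratin of basal keratinocytes, was at 0 in both hESC libraries and at 27.3 and 34.1 in the knockdown, and KRT14, its partner, was at 0 and at 15.6 and 12.4. KRT16 was at 0 in both knockdown libraries. Of the 15 keratinocyte genes at 10 or more in both groups, 4 were at least 2-fold higher, 1 was at least 2-fold lower and 6 were at the stem cell level. At any fold, 9 were called higher and 3 lower. Summed over the list, hESC held 10245 and 10265, the knockdown 11363 and 11575 and the scramble libraries 14556 and 14080. SFN, an adaptor protein of epithelia and a p53 target, rose from 121 and 92.5 to 535 and 548. ITGA6, the laminin receptor of basal cells, fell from 3427 and 3520 to 1909 and 1863 and stayed inside the bounds.

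BMP responses were above the stem cell level in part. In 17 genes of this list at 10 or more in both groups, 10 (58.8%) were at least 2-fold higher, 0 at least 2-fold lower and 5 at the stem cell level. BMP4, the ligand, rose from 61.1 and 65.3 to 891 and 796, a log2 difference of 3.72 ± 0.12. ID1, a direct target, rose from 906 and 974 to 3399 and 3169, whereas ID2 fell from 1169 and 1092 to 722 and 689 and ID3 rose by 0.35 ± 0.07, both inside the bounds. The scramble libraries held 4865 and 4206 for ID2. NOG, a secreted BMP inhibitor, rose from 27.2 and 33.7 to 375 and 390, above the 99.3 and 110 of the scramble libraries. Of these 5 genes, NOG alone stood above both references.

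Amnion genes, which overlap with those of early surface ectoderm, followed the same order of levels. Of 12 at 10 or more in both groups, 8 (66.7%) were at least 2-fold higher, 1 was lower and 2 were at the stem cell level. GABRP, a GABA receptor subunit of amnion, rose from 86.3 and 99 to 617 and 601, where the scramble libraries held 11776 and 13103. IGFBP3, a binding protein of insulin-like growth factors, rose from 140 and 102 to 435 and 362, where they held 10105 and 10683. ISL1, a LIM homeobox factor that passed the filter only through the knockdown libraries, stood at 3.88 and 1.09 in hESC and 170 and 168 in the knockdown. IGFBP5 fell from 405 and 428 to 135 and 159.

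The retinoic acid genes CYP26A1 and RARB rose to levels above both references. Retinoic acid is made from vitamin A, binds the receptors RARA, RARB and RARG, and switches on its own breakdown enzymes and the 3′ HOX genes. The promoters of CYP26A1, which breaks retinoic acid down, and RARB, its receptor, are shown because both genes rose and both hold a DR5 retinoic acid response element, a pair of receptor repeats with 5 bases between them. The sequences are from RefSeq on GRCh38.p14, plus strand, 5′ to 3′, and end just before the start of the transcript whose promoter holds the match. Capitals mark the match.
CYP26A1, chr10:93073743-93073892: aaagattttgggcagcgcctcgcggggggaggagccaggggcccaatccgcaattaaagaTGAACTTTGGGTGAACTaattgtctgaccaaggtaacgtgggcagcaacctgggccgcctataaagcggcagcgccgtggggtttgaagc
RARB, chr3:25428113-25428262: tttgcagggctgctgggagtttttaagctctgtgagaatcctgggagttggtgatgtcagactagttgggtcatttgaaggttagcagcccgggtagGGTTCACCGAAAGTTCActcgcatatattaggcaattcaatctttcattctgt
The matches begin 90 and 53 bases before the start. On either strand, a DR5 element was found in 31 of 35116 RefSeq promoters of 300 bases (0.0883%). Of the listed promoters, 1 of 2 for CYP26A1 and 1 of 4 for RARB hold it. The promoters of DHRS3, RARA, HOXB1, CYP26B1 and CYP26C1, which rose as well, hold no match in these windows. Which transcript start the cells used was not measured.

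CYP26A1 stood at 102 and 69.6 in hESC, 12202 and 13302 in the knockdown and 6258 and 7386 in the scramble libraries. Its log2 difference from hESC was 7.22 ± 0.11 (limma, adjusted p = 2.4e-19). RARB stood at 6.79 and 4.35 in hESC, 1498 and 1604 in the knockdown and 607 and 660 in the scramble libraries. Its log2 difference was 7.91 ± 0.20 from hESC, where it passed the filter only through the knockdown libraries. Both genes were thus higher in the knockdown than in either reference. DHRS3, an enzyme that holds retinoic acid down, rose from 81.5 and 107 to 1773 and 1581, beside 1488 and 1774 in the scramble libraries. RARA rose from 316 and 302 to 2911 and 3440. RARG and the uptake protein STRA6 rose less, by 1.37 ± 0.06 and 1.06 ± 0.10. Of 12 genes of the list at 10 or more in both groups, 9 (75%) were at least 2-fold higher, 0 were at least 2-fold lower and 2 were at the stem cell level. Against the scramble libraries, 7 of 15 genes of the list were called higher and 4 lower, with a median log2 difference of 0.256. Of all genes at 10 or more in both of those groups, 34% were higher and 36.9% lower. The enzyme ALDH1A1 was level, at 64 and 74 against 66.2 and 59, and the binding protein CRABP1 fell by 0.94 on the log2 scale, in neither class.

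HOX genes were mostly below the level of the scramble libraries, by distances that differed between the genes named here. Of 13 at 10 or more in the knockdown and the scramble libraries alike, 11 were called lower and 0 higher. A trend along the clusters was not tested. Of 27 listed, 10 passed the filter and all 10 of these only through the knockdown libraries, so their classes are fixed by the filter and only levels are given. HOXB1, at the 3′ end of its cluster, stood at 5.82 and 7.61 in hESC, 2683 and 2947 in the knockdown and 3616 and 3565 in the scramble libraries. It was close to the scramble level, with a log2 difference of -0.28 from it (limma, adjusted p = 0.0028).

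The other HOX genes named here stood further below the scramble level. HOXB2 was at 0 in hESC and at 623 and 689 in the knockdown, at least 425-fold higher, against 1942 and 1886 in the scramble libraries. HOXA3 was at 0 in hESC and at 209 and 228 in the knockdown, at least 141-fold higher, against 1688 and 1897. HOXB8, near the 5′ end, reached 2.6 and 10.3 where the scramble libraries held 807 and 1015. HOXA9 and HOXC8 were at 0 in both knockdown libraries, where the scramble libraries held 97.3 and 102 of HOXA9 and 109 and 147 of HOXC8. Summed over the list, hESC held 5.82 and 12, the knockdown 9403 and 10125 and the scramble libraries 18760 and 19728. HOTAIRM1, a long noncoding RNA of a HOX cluster, was at 0 in hESC and at 2141 and 2673 in the knockdown, at least 1560-fold higher; the strand setting of the counting is not given in the sources used here, so reads of overlapping genes may mix.

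**Figure D3:**
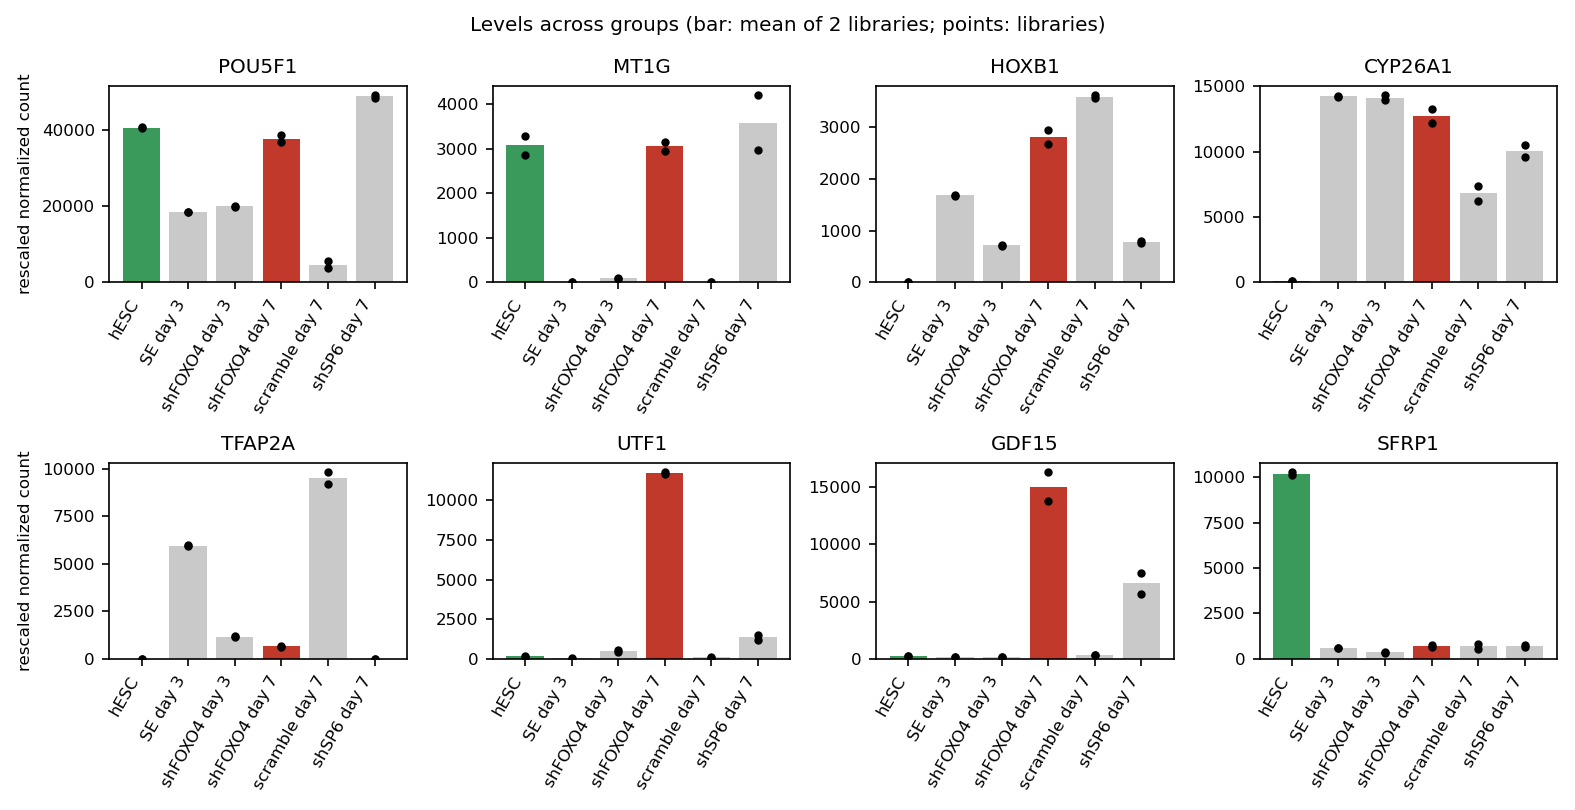
Level of 8 genes (vertical axes, rescaled normalized count on a linear scale from 0) in hESC, WT cells at SE day 3, the FOXO4 knockdown at days 3 and 7, the scramble libraries of day 7 and the SP6 knockdown at day 7. Bars are means of 2 libraries and points are libraries; HOXB1 is lowest in hESC, and UTF1 is highest in the FOXO4 knockdown at day 7.

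Genes of other lineages moved in both directions. The neural ectoderm list summed to 9331 and 8540 in hESC, 11915 and 11987 in the knockdown and 12053 and 12295 in the scramble libraries. OLIG3, a factor of the dorsal neural tube, stood at 3.88 and 4.35 in hESC and 257 and 161 in the knockdown, where the scramble libraries held 3.97 and 0. OLIG3 passed the filter only through the knockdown libraries. PAX6, a master gene of eye and brain, was in neither class at 13.6 and 13.1 against 11.7 and 13.4, and SOX1, a marker of neural plate, was not tested at 0 and 3.26 against 2.6 and 1.03. POU3F1, a POU factor of early ectoderm, rose from 921 and 921 to 3015 and 3368. CDH2, the neural cadherin, fell from 1142 and 1167 to 347 and 341. Of 13 neural ectoderm genes at 10 or more in both groups, 3 were at least 2-fold higher, 3 were lower and 5 were at the stem cell level.

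NGFR, a receptor found on neural crest, rose from 629 and 626 to 2993 and 3076, and SOX9, an SRY-box factor of crest and cartilage, from 298 and 293 to 761 and 704. SOX10, a crest factor that hESC had at 107 and 88.1, rose to 238 and 259. Of 9 neural crest genes at 10 or more in both groups, 3 were at least 2-fold higher, 0 at least 2-fold lower and 5 at the stem cell level. The endoderm factor SOX17 had 0 reads in hESC and a level of 0 and 1.03 in the knockdown, and TBXT, the mesoderm factor brachyury, stood at 4.85 and 2.18 against 10.4 and 6.21; neither was tested. HHEX, a homeobox factor of endoderm and blood vessels, rose from 61.1 and 58.7 to 251 and 279.

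Sums over marker lists of further cell types were as follows. The 10 blood and endothelium genes summed to 6025 and 6175 in hESC and 4511 and 4817 in the knockdown, mostly from KDR, and EMCN, GATA1 and PTPRC were at 0 in both knockdown libraries. The 26 mesenchymal genes summed to 38386 and 39137 in hESC and 85515 and 86012 in the knockdown, and LUM, DCN and TWIST2 were at 0 in both knockdown libraries. COL1A1, a chain of type I collagen, made up much of that rise, from 3789 and 4050 to 43046 and 44347. COL3A1, the chain of type III collagen, was at 5.82 and 2.18 in hESC and 1.3 and 2.07 in the knockdown, where the scramble libraries held 19323 and 21443. The 14 trophoblast genes summed to 2057 and 2071 against 5273 and 5211, with CGB5 and SIGLEC6 at 0 in the knockdown. The part of such cells in the results was not tested.

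WNT genes were often above the stem cell level. SFRP1, a secreted WNT inhibitor, fell from 10102 and 10291 to 666 and 737, 6.88% of hESC, close to the 563 and 798 of the scramble libraries. AXIN2, a feedback target of WNT, rose from 193 and 159 to 1043 and 995, and TCF7, a nuclear factor of the same pathway, from 128 and 176 to 1278 and 1214. Of 16 WNT genes at 10 or more in both groups, 8 (50%) were at least 2-fold higher, 2 were lower and 5 were at the stem cell level, with 12 called higher and 3 lower at any fold. DUSP6, a phosphatase that limits ERK, fell from 4890 and 4783 to 726 and 817, while SPRY4, another ERK inhibitor, was level at 4503 and 4552 against 4558 and 5069. Of 19 FGF and ERK genes, 5 were at least 2-fold higher, 1 was lower and 10 were at the stem cell level, with 10 called higher and 3 lower at any fold.

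Many p53 target genes were above the stem cell level. Of 22 tested, all at 10 or more in both groups, 12 (54.5%) were at least 2-fold higher than in hESC, 0 were at least 2-fold lower and 8 were at the stem cell level; 20 were called higher and 1 lower. GDF15, a secreted stress cytokine, stood at 280 and 264 in hESC, 13734 and 16317 in the knockdown and 351 and 318 in the scramble libraries, a log2 difference of 5.78 ± 0.07 from hESC (limma, adjusted p = 1.6e-20). CDKN1A, the cell cycle inhibitor p21, stood at 2335 and 2298, 8626 and 9352, and 2463 and 2538 in the same order. The scramble libraries were thus close to hESC for both genes, and the FOXO4 knockdown stood apart from them. Against the SP6 knockdown at day 7, 8 of the 22 were called higher and 4 lower, with a median log2 difference of 0.058. Of all genes at 10 or more in both of those groups, 30.6% were higher and 28% lower.

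PLK3, a kinase of the stress response, rose from 179 and 184 to 1311 and 1548, and BBC3, the cell death protein PUMA, from 525 and 536 to 2238 and 2371. PHLDA3, an inhibitor of AKT, rose by 2.24 ± 0.07. RRM2B, a subunit of ribonucleotide reductase, was level at 4908 and 5107 against 4957 and 5125. Cell cycle genes were mostly level, with 21 of 26 (80.8%) at the stem cell level, 1 at least 2-fold higher and 2 lower. MKI67, a marker of cycling cells, stood at 2661 and 2818 against 2767 and 2669, and MCM6, a part of the replicative helicase, fell from 3220 and 3084 to 1290 and 1206. With scaling by total reads, 5 cell cycle genes were at least 2-fold lower.

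Of 18 FOXO target genes at 10 or more in both groups, 5 (27.8%) were at least 2-fold higher, 0 at least 2-fold lower and 12 (66.7%) at the stem cell level. The last share was near the 65.9% of all genes and is no result about the list. At any fold, 9 of the 18 were called higher and 5 lower, beside 31.7% and 31.8% of all genes. CITED2, a transcription cofactor, rose from 768 and 785 to 2241 and 2226, and GADD45A, a stress protein that p53 also controls, from 525 and 501 to 1621 and 1783. CAT, which breaks down hydrogen peroxide, was level at 508 and 409 against 477 and 524. KLF2, a zinc finger factor outside these 18, passed the filter only through the knockdown libraries, at 7.76 and 6.53 in hESC against 85.7 and 163.

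Glycolysis and hypoxia genes rose by small steps. Of 28 tested, 24 were called higher and 0 lower, with a median log2 difference of 0.76; 9 (32.1%) were at least 2-fold higher and 15 (53.6%) at the stem cell level. The number at least 2-fold higher was 5 with scaling by total reads. GPI, the second enzyme of glycolysis, rose from 7436 and 7834 to 25594 and 27614, where the scramble libraries held 2474 and 2328. NDRG1, a hypoxia target, rose from 207 and 200 to 1657 and 2115. LDHA, which makes lactate, was at the stem cell level with 27654 and 26056 against 30279 and 31115, and the scramble libraries held 3779 and 4010. HK1, a hexokinase, was level at 12009 and 11625 against 11577 and 11534.

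Mitochondrially encoded mRNAs took a larger share of the library in the knockdown. They made up 2.23% and 2.41% of all values in hESC, 6% and 5.56% in the knockdown and 7.47% and 7.17% in the scramble libraries. The 10 most abundant genes held 6.87% and 6.9% in hESC and 12.3% and 11.6% in the knockdown. All 13 were called higher than in hESC, 9 (69.2%) of them at least 2-fold, with 1 at the stem cell level. These counts depend on the scaling: 3 with quantile normalization and 5 with total reads were at least 2-fold higher, and 8 and 6 were at the stem cell level. MT-CO1, a subunit of cytochrome oxidase, rose from 121347 and 127774 to 481878 and 448040, while the scramble libraries held 489804 and 451302.

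Chromatin and lipid genes stayed at the stem cell level in the main. Of 31 chromatin modifiers, 27 (87.1%) were at that level, 2 were at least 2-fold higher and 0 at least 2-fold lower. At any fold, 8 were called higher and 13 lower, beside 31.7% and 31.8% of all genes. SUZ12, a part of Polycomb repressive complex, was level at 1023 and 966 against 1042 and 946, and KDM6B, which removes the Polycomb mark, rose from 668 and 694 to 2400 and 2967. HDAC1, a histone deacetylase, rose by 1.08 ± 0.05. Of 19 cholesterol synthesis genes, 17 (89.5%) were at the stem cell level. FDFT1, squalene synthase, stood at 12282 and 11840 against 12383 and 12294, and SQLE, the next enzyme, rose by 1.04 ± 0.05. Of 9 fatty acid synthesis genes, 7 were at the stem cell level and 2 at least 2-fold higher; in both lipid lists the number at least 2-fold higher was 0 with scaling by total reads.

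Early response and heat shock genes were mostly higher. Of 17, 16 were called higher, 10 of them at least 2-fold, and 1 was called lower. JUNB, an early response factor, rose from 55.3 and 65.3 to 318 and 326. The gene that fell was HSPA8, the abundant heat shock protein of unstressed cells, from 25350 and 25989 to 8097 and 7658. Of 19 genes of the ATF4 and unfolded protein responses, 13 were called higher and 4 lower, 14 (73.7%) were at the stem cell level and 4 were at least 2-fold higher, among them DDIT3, at 23.3 and 28.3 against 153 and 162. In the interferon list 4 of 19 were at least 2-fold higher, 3 were lower and 10 were at the stem cell level. IFITM1, a membrane protein that blocks viruses, rose from 1646 and 1681 to 8105 and 7787, whereas OAS3, an RNA sensor, fell from 45.6 and 53.3 to 9.09 and 13.4; the IFITM genes are near-identical copies.

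IGF2, an imprinted growth factor, showed 3 levels. It stood at 86.3 and 64.2 in hESC, 6736 and 5280 in the knockdown and 128228 and 134119 in the scramble libraries. Of 14 imprinted genes at 10 or more in both groups, 3 were at least 2-fold higher, 1 was lower and 8 were at the stem cell level. GRB10, an adaptor that dampens insulin signaling, was the one at least 2-fold lower, falling from 1500 and 1538 to 608 and 660. Among YAP and TEAD target genes 8 of 15 were at the stem cell level, and TEAD1, the factor itself, fell from 2403 and 2360 to 569 and 626.

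**Figure D4:**
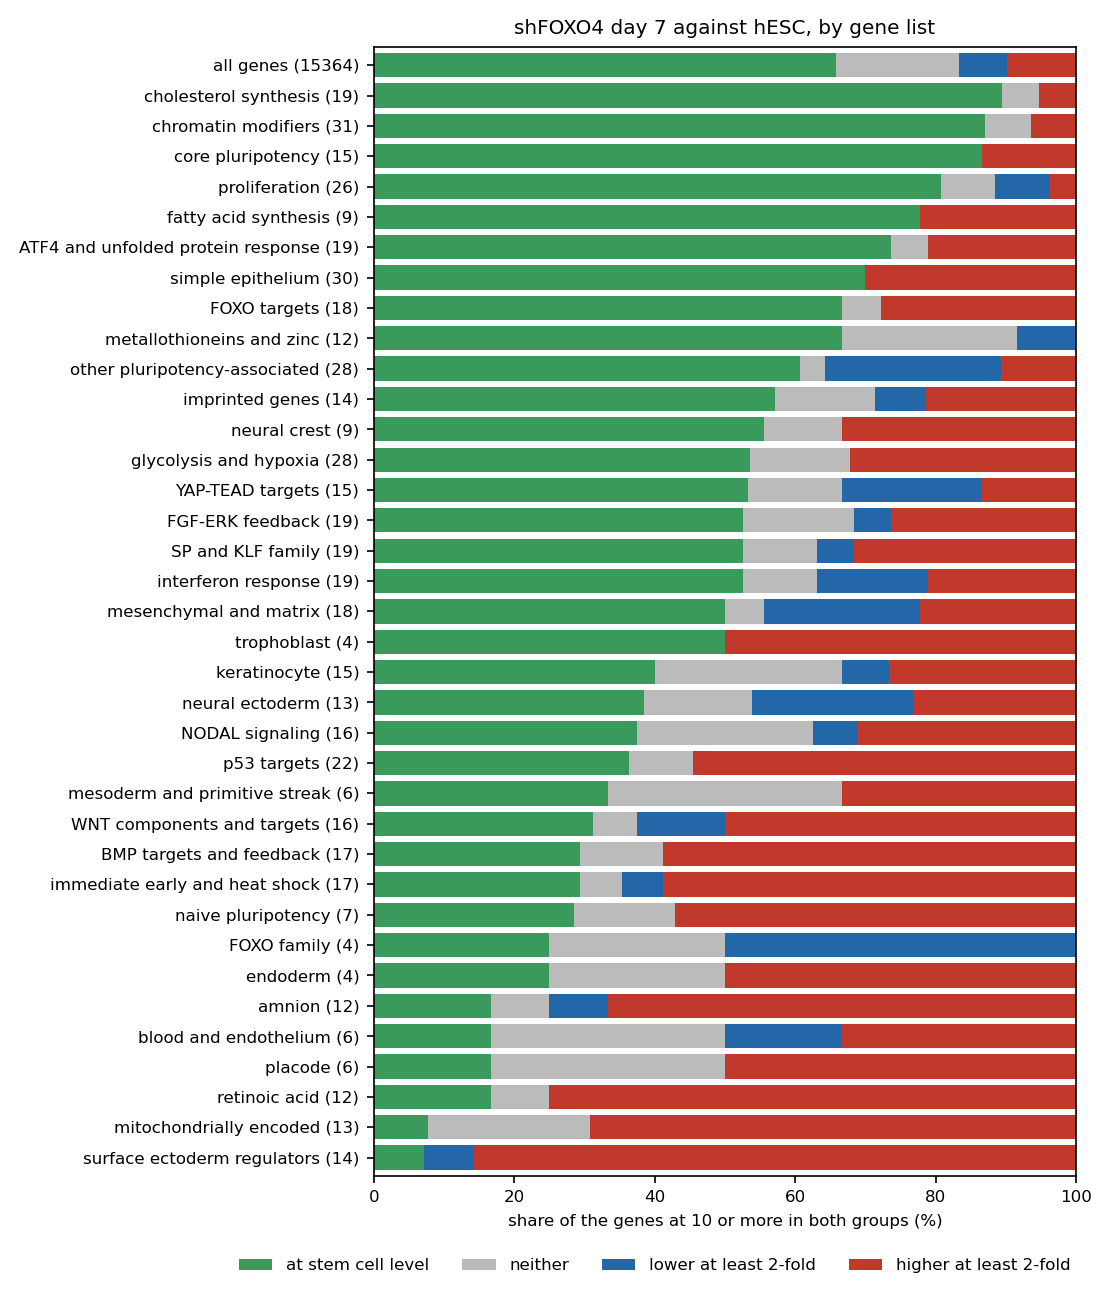
Share of the genes at 10 or more in both groups (horizontal axis, percent) that were at least 2-fold higher, at least 2-fold lower, at the stem cell level or in neither class, for all genes and the gene lists with such genes, sorted by the share at the stem cell level. Cholesterol synthesis (89.5%), chromatin modifiers (87.1%) and core pluripotency (86.7%) lie at one end, and surface ectoderm regulators (7.14%) and mitochondrially encoded genes (7.69%), whose share depends on the scaling, at the other.

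The genes with the largest rises from hESC were, besides those above, mostly near silent in stem cells. Those named here passed the filter only through the knockdown libraries, so that they rose from hESC follows from the filter. ZNF503, a zinc finger repressor, rose from 3.88 and 3.26 to 3859 and 4161, a log2 difference of 9.78 ± 0.16, and stood at 326 and 216 in the scramble libraries. MEIS2, a cofactor of HOX proteins, stood at 0.97 and 1.09 in hESC, 691 and 703 in the knockdown and 5012 and 4835 in the scramble libraries. GBX2, a homeobox factor of the hindbrain border, rose from 5.82 and 13.1 to 1966 and 1856, where the scramble libraries held 181 and 109. LIM2, a lens membrane protein, was at 0 in hESC and in the scramble libraries and at 248 and 223 in the knockdown, at least 153-fold higher than hESC. RNASE1, a secreted ribonuclease, rose to 1027 and 906 from 2.91 and 6.53. The pseudogene SLC25A3P1 stood at 0 and 1.09 in hESC and 408 and 296 in the knockdown and may share reads with its parent gene, and the antisense RNA CCR5AS stood at 0 and 1.09 against 195 and 296.

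Of the called genes whose mean reached 100, NPTX1, GPR176 and HTR7 fell furthest. NPTX1, a secreted protein of synapses, fell from 489 and 516 to 11.7 and 5.17, 1.68% of hESC. GPR176, an orphan receptor, fell from 3642 and 3671 to 97.4 and 123, a log2 difference of -5.05 ± 0.10, and HTR7, a serotonin receptor, from 698 and 731 to 22.1 and 19.6. The scramble libraries were also low for these genes, at 51.6 and 38.3 for GPR176 and 7.94 and 4.14 for HTR7. ADAMTS8, CTSF, RASGRF2, LMO3, ANOS1, VGLL3 and PIEZO2 stood at 5.25% to 9.78% of hESC. For RASGRF2, a RAS exchange factor, the scramble libraries were near hESC, at 179 and 174 against 196 and 250, and the knockdown stood at 11.7 and 20.7.

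Some genes at the stem cell level had moved far in the scramble cells. Above hESC there, COL2A1, the collagen of cartilage, stood at 503 and 481 in hESC, 479 and 312 in the knockdown and 15383 and 15124 in the scramble libraries. DOK4, a docking protein of receptor kinases, stood at 560 and 614, 748 and 718, and 11463 and 10973 in the same order. Below hESC there, and apart from the metallothioneins, ATCAY, a brain protein, stood at 1906 and 2054, 2365 and 2476, and 31.8 and 17.6. MYH2, a muscle myosin, stood at 421 and 442 in hESC and 265 and 258 in the knockdown and was at 0 in both scramble libraries. These genes were chosen for their distance between hESC and the scramble libraries, so that distance is a description.

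Set against the day 7 scramble libraries of the same table, the knockdown differed at more genes than against hESC. Of 16374 genes tested, 6081 (37.1%) were called higher and 5800 (35.4%) lower, and 3519 (21.5%) and 2547 (15.6%) were at least 2-fold away. Both comparisons use the same knockdown libraries, so their lists are given side by side and not related to each other. Lists are counted over the 14599 genes at 10 or more in both groups, of which 34% were higher and 36.9% lower. Against the scramble libraries, 12 of 15 core pluripotency genes were called higher and 1 lower, with a median log2 difference of 3.14, and 27 of 27 glycolysis genes were called higher. Lower there were 20 of 26 surface ectoderm regulators (median -2.91), 18 of 19 amnion genes (median -3.45) and 11 of 13 HOX genes (median -2.49).

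Set against the SP6 knockdown at day 7, an arm of another table, surface ectoderm regulators were mostly higher in the FOXO4 knockdown. Of 17099 genes tested, 5098 (29.8%) were called higher and 5020 (29.4%) lower, with 1332 (7.79%) and 1767 (10.3%) at least 2-fold away; the table and the group cannot be told apart. TFAP2A stood at 7.28 and 5.36 in the SP6 knockdown, about as low as in hESC, and had a log2 difference of 6.52 ± 0.23; it passed the filter only through the FOXO4 knockdown. TBX3, IGF2 and the epithelial protease TMPRSS4 were the other genes furthest above it, and RASGRF2 was the furthest below. Of 15985 genes at 10 or more in both groups, 30.6% were higher and 28% lower. Of 18 surface ectoderm regulators among them, 17 were called higher and 0 lower (limma, adjusted p under 0.05), and of 13 amnion genes 9 were higher and 2 lower.

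Core pluripotency genes moved in both directions between the 2 knockdowns. Of 15, 7 were called higher and 3 lower in the FOXO4 knockdown, 2 of them at least 2-fold higher, and POU5F1 stood at 49037 and 48451 in the SP6 knockdown, above the 38619 and 36792 of the FOXO4 knockdown. For the metallothioneins 3 of 12 genes were called higher and 3 lower. Of 17 NODAL signaling genes, 6 were called higher and 7 lower. Of all genes at 10 or more in both groups, 30.6% were higher and 28% lower. The counts of the metallothionein list are therefore no result about that list. Of the 17 NODAL signaling genes, 2 were at least 2-fold higher and 5 at least 2-fold lower. Among all 15985 genes, 1131 were at least 2-fold higher and 1223 at least 2-fold lower. Whether the NODAL list departed from all genes was not tested. LEFTY2 was lower in the FOXO4 knockdown, with a log2 difference of -2.31 ± 0.08. FOXO4 itself stood at 225 and 197 in the SP6 knockdown, above the 35.1 and 35.2 of the FOXO4 knockdown and below hESC.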

How the data were processed

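RNA-seq of 20 libraries of the H1 line in 10 groups of 2 was used, and 4 of these libraries make up the main comparison. MolPure (RNA extraction) and TruSeq Stranded mRNA (libraries) kits were used, per the labels' protocols. Per the submitters' processing notes, Trimmomatic 0.39, STAR 2.6.1, RSEM 1.3.0, DESeq2 1.20.0 and hg19 were used, with roles and order not given in the sources used here. What was deposited is a signal: read counts that the authors had divided by size factors (as the values show), in tables of 4 libraries. Knockdown columns carry arm and replicate only, so their day was taken from their table. Both tables used list the same 29961 genes in the same order. Their size factors are not the median-of-ratios factors of their own 4 libraries, unlike in the other 3 tables. In all 20 libraries, 1 size factor turned 100% of the values into whole reads within 0.001 read. For scramble replicate 2 of shFOXO4 day 7 and of shSP6 day 3, the value of 1 read was close to 1 (0.99958 and 1.0112).

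The 4 libraries were rescaled by median of ratios over 16368 genes with a mean of at least 10. limma 3.58.1 (R 4.3.3; lmFit, eBayes with trend, two-sided) was run on log2(value + 1), which understates changes of low genes, with Benjamini-Hochberg adjustment over all tested genes. edgeR 4.0.16 on the recovered reads called 5407 genes higher and 5200 lower. The scripts were tested on simulated data. Replicates were not copies (chi-square per degree of freedom 2.15 in hESC and 3.53 in the knockdown; Pearson correlation 0.993 and 0.99). Floors are 3 reads over a group and cover counting error only. The 37 gene lists hold 684 genes, of which 27 are in neither table; symbols were found for 24036 identifiers. Members, lists and rules were chosen with earlier results of these data known. Named genes are a fixed set of regulators, the 15 largest changes each way with a mean of at least 100, the 10 genes each way at the stem cell level with the scramble furthest off, up to 4 largest and 3 smallest changes per list, whole lists for 4 groups, and the 4 largest differences each way from shSP6; placeholders were left out, and the text names a part of them; some genes that the rule selects are not reported here. A few further list members named for their role were chosen after their values were seen. Promoters are from RefSeq on GRCh38.p14, another build than that of the values, and are used for sequence only. Alternatives were other pseudocounts, filters, scalings and tools, 1 fit over 8 libraries, a replicate block and leaving out each library.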

Additional observations from a re-analysis of the deposited data

How the results depend on the processing

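With a narrower bound, a 95% interval within -0.5 to 0.5, 4439 genes were at the stem cell level in place of 10123. Under the other settings tried (pseudocounts of 0.5 and 5, no filter, a mean of at least 50, TMM factors, quantile normalization, total reads, values as deposited, DESeq2 1.42.0, edgeR and 1 fit over 8 libraries), the counts of genes higher, lower and at the stem cell level stayed within 1.5 times the main counts; edgeR gives no interval, so it gives no count at the stem cell level. Leaving out 1 library at a time gave 4726 to 4915 genes higher, 4244 to 4815 lower and 9262 to 9593 at the stem cell level; against the scramble libraries 4874 to 5736 were higher and 4862 to 5294 lower, and against the SP6 knockdown 4183 to 4719 higher and 3852 to 4803 lower. The lone library left in a group is assumed to vary like those of the other group.

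With a replicate block, 5347 genes were higher, 5132 lower and 10097 at the stem cell level; against the scramble libraries the block gave 6184 and 5918, and against the SP6 knockdown 5149 and 5084. Deviations of same-numbered libraries had a correlation of -0.0013 (knockdown and hESC) and 0.025 (knockdown and scramble). From so few libraries this cannot tell whether same-numbered libraries shared a culture or a batch.

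Of 4466 alternative values for 289 named genes, 4392 were counted as the same, 70 as weaker, 4 as stronger and 0 as reversed. A gene at the stem cell level was the same if its interval stayed inside the bounds, and weaker if not. The direction of such genes was not checked, so the 0 reversed covers only the other genes. For those, the same means that direction and side of the threshold were kept. Weaker means that the call was lost, and stronger that one was gained. NANOG and TDGF1 left the stem cell level class with 1 fit over 8 libraries. With a mean of at least 50, fewer genes of the amnion (8), neural ectoderm (2), neural crest (3) and keratinocyte (3) lists were at least 2-fold higher, because fewer were tested.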
